A study of Mus musculus with 2 samples.

Results

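Among the 1187 mouse miRNA precursors with a listed read count, 10 were taken by name because their hairpins coincide with the gene of another short noncoding RNA, a snoRNA or a scaRNA. They are mmu-mir-3535, mmu-mir-5121, mmu-mir-677, mmu-mir-664, mmu-mir-1839, mmu-mir-1843a, mmu-mir-1843b, mmu-mir-3084-1, mmu-mir-3084-2 and mmu-mir-6516. All 10 had counts in both libraries. The GENCODE annotation bore the label out: each hairpin shared bases with such a gene, and all 10 lay on the same strand as that gene. A further 6 listed precursors overlapped a snoRNA, scaRNA or miscellaneous RNA gene without being on the list, and they are set beside the 10 further on.

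The counts came from small RNA of mouse hindlimb muscle. The femoral artery had been surgically removed to make the limb ischemic, and the muscle was collected 1 day later. HC was the hypercholesterolemic library, of genotype ApoE-/-, and the series' design text adds a high-fat diet. NC was the normocholesterolemic control library, from C57Bl/6 mice with the genotype given as control. Both libraries carried the same injury, so no uninjured muscle was compared, and genotype and diet differed together. Each group had 1 library. The labels state neither the age, sex and number of the mice nor the strain background of the ApoE-/- mice. The spread between animals could not be estimated and no test was run. Every interval given below is a 95% counting interval that describes these 2 libraries only. Without molecular identifiers, reads need not be separate molecules, and these intervals cover counting error only.

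Counts over the listed precursors summed to 31198050 in HC and 43848576 in NC. These sums exceed the denominators of the authors' column headed RPM, 27222821 in HC and 32252170 in NC. Some precursors had equal values, so a read may be listed under more than 1 precursor. Shares given below are therefore shares of listed counts, not of reads. The level unit is CPM, counts per 1000000 of a library size scaled by the trimmed mean of M-values (TMM), a method that assumes most precursors to be equal between the libraries. A count of 0 allowed up to 0.0918 CPM in HC and 0.0717 CPM in NC, taking 3 counts as the floor. The muscle label was checked on mmu-mir-133a-1, which had 65127 CPM in HC and 65383 CPM in NC, against 0.214 CPM in HC and 0.215 CPM in NC for mmu-mir-122, a liver marker. Counts that fell outside all listed precursors made up 55.9% of listed counts in HC and 44.1% in NC.

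snoRNAs are short nuclear RNAs that guide the chemical modification of other RNAs, mostly ribosomal RNA, and scaRNAs do the same for spliceosomal RNAs in Cajal bodies. Box C/D snoRNAs direct methylation of the ribose and carry a C box near the 5′ end and a D box near the 3′ end. H/ACA snoRNAs direct the isomerisation of uridine to pseudouridine, fold into a pair of hairpins and end shortly after the letters ACA. Most are cut from introns of genes with housekeeping roles. Some are also trimmed to pieces of miRNA length, and for this reason a miRNA name and a snoRNA name can stand for the same bases.

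The letters of the overlapping genes put the 10 precursors in 2 kinds. The genes of 3 precursors held TGATGA, the core of box C, within their first 15 bases and CTGA, box D, within their last 15. These were Gm24148, which lies inside the miR-3535 hairpin, Snord33, which overlaps miR-5121, and the snoRNA gene annotated as Mir677, which lies inside the miR-677 hairpin. The genes of the other 7 precursors held ACA in their last 10 bases and no TGATGA in their first 15, and are called the H/ACA kind here from these letters alone. Both searches read only the annotated strand, and the 2 motifs can share letters where CTGATGA occurs. Of 1558 snoRNA and scaRNA genes in the same annotation, 19.2% held the box C/D letters and 47.2% the ACA letters so defined. The sequences of the 3 box C/D genes are shown with the bases of the annotated mature miRNA in capitals, because they show which part of the snoRNA the miRNA name covers. They are from GENCODE M21 (GRCm38), written as DNA.
Gm24148 (chr1:86352008-86352087, minus strand): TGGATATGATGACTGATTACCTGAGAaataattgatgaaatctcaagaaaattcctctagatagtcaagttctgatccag
Snord33 (chr7:45126864-45126947, minus strand): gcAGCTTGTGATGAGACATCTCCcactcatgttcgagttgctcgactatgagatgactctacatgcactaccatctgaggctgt
Mir677 snoRNA gene (chr10:128085289-128085360, plus strand): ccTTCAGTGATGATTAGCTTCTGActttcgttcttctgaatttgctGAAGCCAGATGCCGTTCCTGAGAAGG

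In each of these 3 genes a mature arm began at or near the 5′ end of the snoRNA. miR-3535 started at base 1 of Gm24148, and miR-5121 and miR-677-5p started at base 3 of their genes. All 3 arms therefore contained the box C letters, starting at base 7 of miR-3535 and of miR-5121 and at base 6 of miR-677-5p. The mature sequences, from RefSeq (GRCm38.p6), are shown with the seed in capitals, bases 2 to 8 from the 5′ end, the stretch by which a miRNA chiefly recognises its targets.
miR-3535: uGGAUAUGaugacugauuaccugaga
miR-5121: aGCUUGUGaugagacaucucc
miR-677-5p: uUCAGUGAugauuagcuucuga

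The H/ACA kind differed in having no annotated mature arm near the 5′ end of the gene. An arm at the 3′ end was not particular to it, since miR-677-3p covered bases 47 to 72 of a box C/D gene of 72 bases. All annotated mature arms of the other 7 precursors lay in the 3′ part of their genes, with the most 5′ of them, miR-1839-5p, starting at base 65 of a gene of 127 bases. Snora36b, the H/ACA snoRNA over miR-664, is shown as the example, with the bases of miR-664-5p and miR-664-3p in capitals.
Snora36b (chr1:185242907-185243038, plus strand): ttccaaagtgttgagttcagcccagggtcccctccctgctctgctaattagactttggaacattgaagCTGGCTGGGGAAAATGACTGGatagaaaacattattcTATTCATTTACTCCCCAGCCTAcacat

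**Figure D1:**
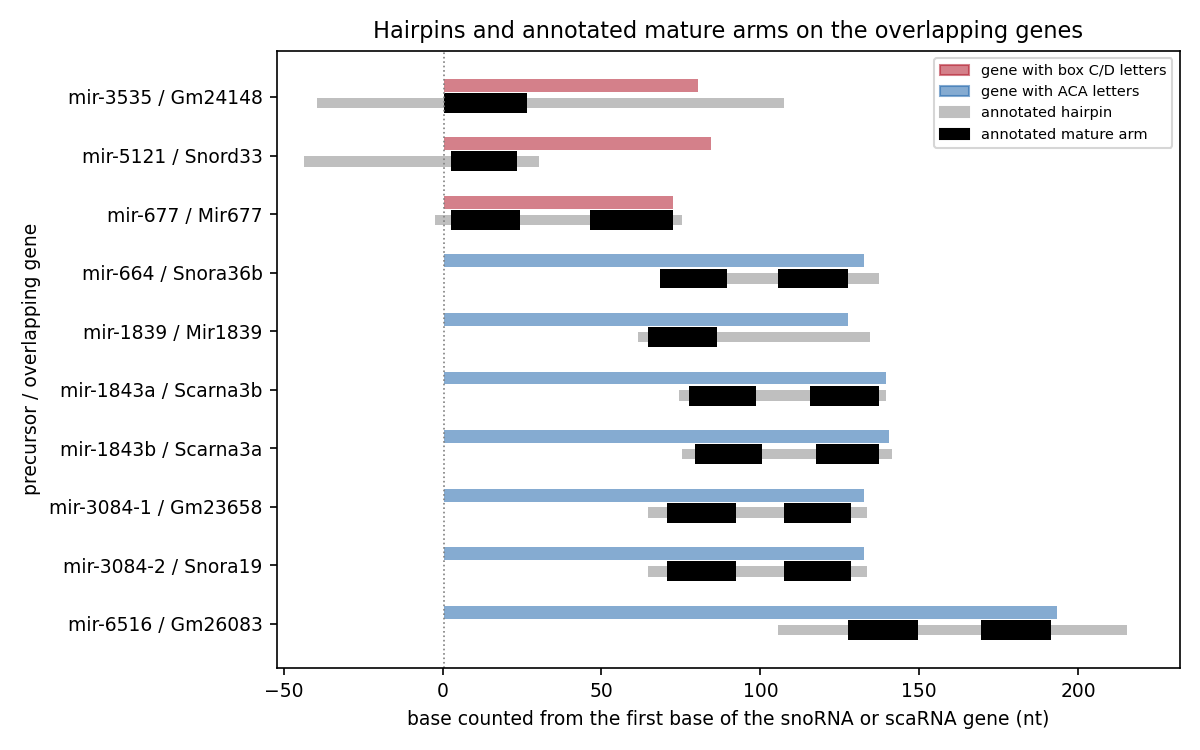
Position of each annotated hairpin (grey) and mature arm (black) on its overlapping gene (coloured bar), in bases counted from the first base of the gene. The mature arms start at base 1 or 3 in the 3 genes with box C/D letters and at base 65 or later in the 7 genes with ACA letters, apart from miR-677-3p, which starts at base 47.

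The hairpins differed in how much of the gene they took in. The miR-3535 hairpin of 147 bases covered all 80 bases of Gm24148 with 40 bases before it and 27 after it. The miR-677 hairpin of 78 bases covered all 72 bases of its snoRNA gene. By contrast, the miR-5121 hairpin of 74 bases covered only the first 30 bases of Snord33 and 44 bases upstream of it. For the 7 precursors of the H/ACA kind the hairpin covered between 45.6% and 52.0% of the gene. A read that lies inside the shared bases carries the letters of both names, so these counts do not separate the miRNA from its snoRNA or scaRNA.

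Of the 10 precursors, miR-5121 and miR-3535, both of the box C/D kind, differed most between the libraries. They were higher in HC by more than 2-fold with TMM scaling. miR-677, of the same kind, had a log2 fold of 0.14, the nearest to 0 of the 10 with that scaling, beside -0.15 for miR-664. With plain totals of the precursor counts as library sizes, miR-664 (-0.014) was nearer to 0 than miR-677 (0.27). The size rule asked for a mean of at least 1 CPM, a fold of at least 2 and a counting interval that excludes equality. By that rule 2 of the 10 precursors were higher in HC, where 2.39% of the 335 compared precursors were, and 0 of 10 were lower, where 1.49% of all compared were. Of the 325 compared precursors outside the 10, 6 were higher and 5 lower. The 10 and the rule were chosen with earlier results of these data known, so these counts are a description only. With the minimum set at 10 CPM, 5 of the 10 remained, and 1 of them was higher in HC against a background of 1.35%, with 0 lower against 0.901%. In muscle taken as a whole, fewer cells of a type and less RNA per cell cannot be told apart.

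miR-5121 (chromosome 7, 45126918 to 45126991, minus strand, mm10) had 393 counts in HC and 100 counts in NC. This gave 12.0 CPM in HC (10.9 to 13.3) and 2.39 CPM in NC (1.94 to 2.91), intervals that did not overlap. The fold was 5.03 (4.03 to 6.33), a log2 fold of 2.33, and miR-5121 ranked first of the 335 compared precursors in log2 fold. Its level was low: it stood at rank 239 of 335 by mean CPM, under the stricter minimum. Snord33, a box C/D snoRNA of 18S ribosomal RNA methylation, lies with other snoRNAs in introns of Rpl13a, the gene of a protein of the large ribosomal subunit. In cultured rodent cells, snoRNAs of these Rpl13a introns have been tied to the response to lipid overload and oxidative stress. All 74 bases of the hairpin lay in exons of Rpl13a transcripts annotated as retained introns, whereas 1 base lay in an exon of its protein-coding transcripts. The 21 bases of mature miR-5121 occurred in transcripts of 3 annotated genes, namely Mir5121, Snord33 and Rpl13a.

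miR-3535 (chromosome 1, 86351981 to 86352127, minus strand) had 1275 counts in HC and 663 counts in NC. Its level was 39.0 CPM in HC (36.9 to 41.2) and 15.8 CPM in NC (14.7 to 17.1), again with no overlap. The fold was 2.46 (2.24 to 2.71), a log2 fold of 1.30, rank 6 of 335. The hairpin lies in Ncl, the gene of nucleolin, a nucleolar protein that acts in ribosome biogenesis. Of the hairpin's 147 bases, 83 lay in exons of Ncl transcripts annotated as retained introns. Of the mature arm's 26 bases, 2 lay there, and exons of protein-coding Ncl transcripts held no base of the hairpin. The mature letters occurred in transcripts of 2 annotated genes, the miRNA and Gm24148.

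miR-677 (chromosome 10, 128085286 to 128085363, plus strand) had 167 counts in HC and 194 counts in NC. This was 5.11 CPM in HC (4.36 to 5.95) and 4.63 CPM in NC (4.01 to 5.34). Its log2 fold was 0.14 (-0.17 to 0.45), and the intervals of the libraries overlapped. With TMM scaling a difference of this size was not detectable at this depth, and the interval leaves out the fold of 2. The hairpin lies in an intron of Atp5b, which encodes the beta subunit of mitochondrial ATP synthase.

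**Figure D2:**
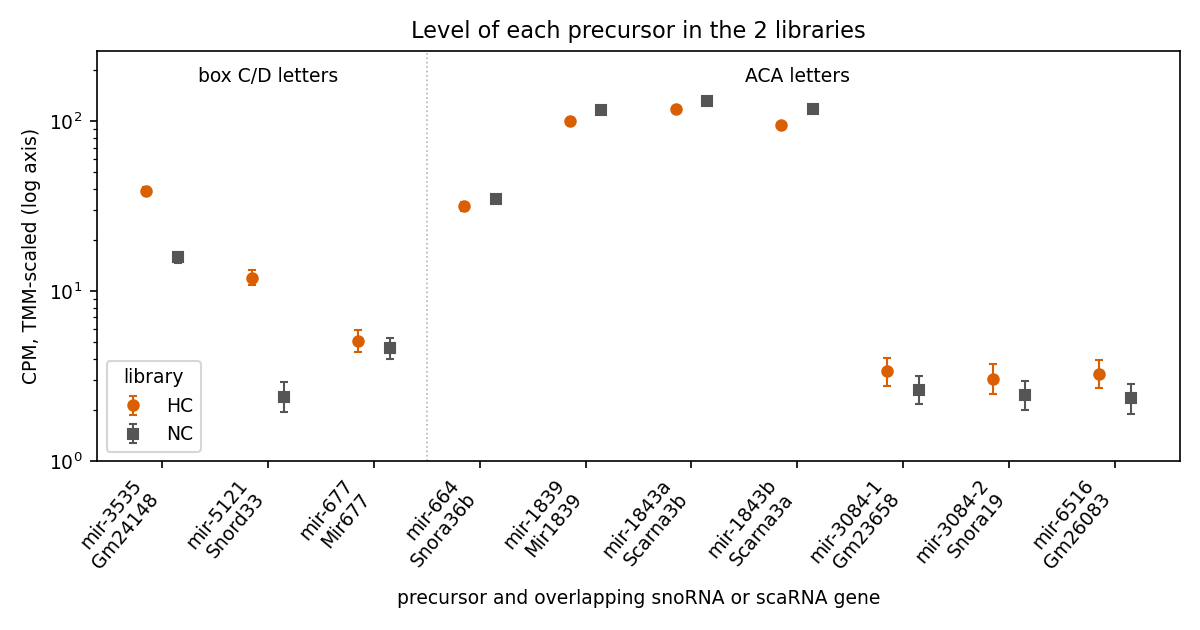
Level of each precursor as TMM-scaled CPM on a log axis, in HC (circles) and NC (squares), with 95% counting intervals, 1 library per group. miR-5121 (12.0 against 2.39 CPM) and miR-3535 (39.0 against 15.8 CPM) are set apart between the libraries, while the other 8 precursors lie close together.

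Ratios taken inside a library do not depend on the scaling, and they separated the 3 box C/D precursors from each other. miR-3535 had 7.63 counts for each miR-677 count in HC (6.49 to 9.03) and 3.42 in NC (2.91 to 4.03). miR-5121 had 2.35 counts for each miR-677 count in HC (1.96 to 2.84) and 0.515 in NC (0.401 to 0.660). Relative to miR-3535, miR-5121 stood at 0.308 in HC (0.275 to 0.345) and 0.151 in NC (0.121 to 0.186). None of these pairs of intervals overlapped, so the 3 precursors did not move by a common factor between these libraries. Of the counts of this kind, miR-3535 held a near-equal share, 69.5% in HC (67.3 to 71.6%) and 69.3% in NC (66.2 to 72.2%). miR-5121 held 21.4% in HC and 10.4% in NC, and miR-677 held 9.10% in HC and 20.3% in NC.

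miR-664 served as a point of comparison from the H/ACA kind, since its level is of the same order as that of miR-3535. Here miR-3535 had 1.24 counts for each miR-664 count in HC (1.14 to 1.34) and 0.453 in NC (0.413 to 0.497), so the order of the pair by count was reversed between the libraries. For miR-5121 the ratio to miR-664 was 0.381 in HC (0.339 to 0.429) and 0.0684 in NC (0.0552 to 0.0837). For miR-677 it was 0.162 in HC (0.137 to 0.191) and 0.133 in NC (0.114 to 0.154), with overlapping intervals.

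The counts outside the precursors moved in the same direction as miR-5121 and miR-3535. Divided by the scaled library size, they came to 1.46 times as many in HC as in NC, or 0.55 on the log2 scale. Taken per count outside the precursors, a denominator added after the values had been seen, miR-5121 had a log2 fold of 1.78 (1.46 to 2.11). miR-3535 had 0.75 (0.61 to 0.89) on that denominator, which is under the 2-fold limit, so its call was lost there. The part of the outside counts in these results was not tested.

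**Figure D3:**
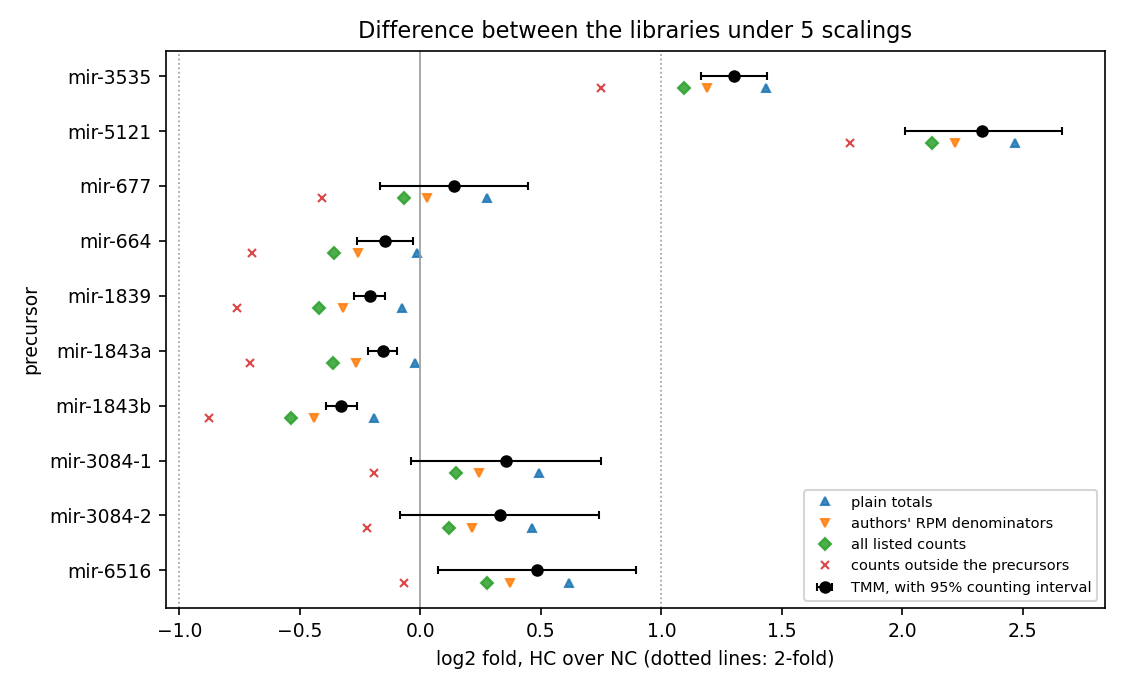
Log2 fold of HC over NC for each precursor, with TMM scaling and its 95% counting interval (black) and with 4 other denominators (coloured markers). miR-5121 lies beyond the dotted 2-fold line with each denominator shown, and miR-3535 with each except the counts outside the precursors, where it is at 0.75.

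The H/ACA precursors with more counts were slightly lower in HC, none of them by 2-fold. They form the most abundant part of the 10: miR-1839, miR-1843a and miR-1843b held 76.3% of the members' counts in HC (75.5 to 77.0%) and 84.9% in NC (84.4 to 85.4%). The summed counts of all 7 H/ACA precursors were 11573 in HC and 17100 in NC, a log2 fold of -0.21 (-0.24 to -0.17). For the 3 box C/D precursors the sums were 1835 in HC and 957 in NC, a log2 fold of 1.30 (1.18 to 1.41). Each sum mainly reflects its most abundant precursors and does not describe every member of its kind. miR-3535 held 69.5% of the box C/D counts in HC and 69.3% in NC, while miR-677 had a log2 fold of 0.14. Of the H/ACA kind, miR-3084-1, miR-3084-2 and miR-6516 had positive log2 folds (0.36, 0.33 and 0.48). All 10 together took 0.0430% of precursor counts in HC (0.0423 to 0.0437%) and 0.0412% in NC (0.0406 to 0.0418%).

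miR-1839 (chromosome 7, 81529916 to 81529988) had 3271 counts in HC and 4848 counts in NC. Its level was 100.1 CPM in HC (96.7 to 103.6) and 115.8 CPM in NC (112.6 to 119.1), which left a log2 fold of -0.21 (-0.28 to -0.15). The hairpin is part of an exon of 2900076A07Rik, a long noncoding RNA, and covers 66 of the 127 bases of a scaRNA gene. miR-664 (chromosome 1, 185242975 to 185243043), in an intron of Rab3gap2, which encodes a subunit of the Rab3 GTPase-activating complex, had 1031 counts in HC and 1463 counts in NC. Its level was 31.5 CPM in HC (29.7 to 33.5) and 35.0 CPM in NC (33.2 to 36.8), with a log2 fold of -0.15 (-0.26 to -0.03).

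miR-1843a and miR-1843b come from 2 related scaRNA genes on different chromosomes. miR-1843a (chromosome 12, 80391613 to 80391677) overlaps Scarna3b in an intron of Dcaf5, which encodes a substrate receptor of a ubiquitin ligase. miR-1843b (chromosome 1, 159340358 to 159340423) overlaps Scarna3a in an intron of Cop1, which encodes a ubiquitin ligase. Aligned without gaps, their hairpins were identical at 59 of 65 bases, with a longest shared run of 23 bases. The scaRNA genes, of 139 and 140 bases, were identical at 97 of 139 when aligned in the same way. An inserted or lost base would lower such a count, so the 2 values do not compare hairpin with gene. The 5p arms are shown because they are the same bases read 1 position apart, so that their seeds, in capitals, differ.
miR-1843a-5p: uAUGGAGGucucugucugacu
miR-1843b-5p: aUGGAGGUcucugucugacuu
The whole of miR-1843b-5p is also present in the miR-1843a hairpin, so a read confined to those bases cannot be assigned to either by its letters. The 3p arms differ in sequence.

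The counts of the pair were close but not equal. miR-1843a had 3865 counts in HC and 5515 counts in NC, or 118.3 CPM in HC (114.6 to 122.0) and 131.8 CPM in NC (128.3 to 135.3). miR-1843b had 3089 counts in HC and 4964 counts in NC, or 94.5 CPM in HC (91.2 to 97.9) and 118.6 CPM in NC (115.3 to 121.9). The log2 folds were -0.16 (-0.22 to -0.10) for miR-1843a and -0.33 (-0.39 to -0.26) for miR-1843b. Inside the libraries, miR-1843b stood at 0.799 of miR-1843a in HC (0.762 to 0.838) and at 0.900 in NC (0.866 to 0.935). These intervals did not overlap, so the pair differed in its ratio between the libraries whatever the scaling.

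The 2 copies of miR-3084 could not be told apart. miR-3084-1 (chromosome 19, 24942235 to 24942303) overlaps the snoRNA gene Gm23658 in an intron of Cbwd1. miR-3084-2 (chromosome 19, 60774329 to 60774397) overlaps Snora19 in an intron of Eif3a, which encodes a subunit of a translation initiation factor. Their hairpins were identical at all 69 bases, and so were the snoRNA genes at all 132. miR-3084-1 had 110 counts in HC and 110 in NC, and miR-3084-2 had 100 counts in HC and 102 in NC. The ratio of the second copy to the first was 0.909 in HC (0.686 to 1.20) and 0.927 in NC (0.701 to 1.23). Their log2 folds were 0.36 (-0.04 to 0.75) and 0.33 (-0.08 to 0.74), and since the copies share their letters these values are not separate measurements.

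miR-6516 (chromosome 11, 117077348 to 117077457) lies in an exon of the snoRNA host gene Snhg20 and overlaps the scaRNA gene Gm26083. It had 107 counts in HC and 98 counts in NC, or 3.27 CPM in HC (2.68 to 3.96) and 2.34 CPM in NC (1.90 to 2.85). The log2 fold was 0.48 (0.07 to 0.89), under the size rule, and the separate intervals of the libraries overlapped. Per count outside the precursors it lay at -0.067.

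Over all 10, the counting interval lay above equality for 3 precursors (miR-5121, miR-3535 and miR-6516) and below it for 4 (miR-664, miR-1843b, miR-1843a and miR-1839). Over all compared precursors 32.2% lay above and 36.7% below, so these shares are close to the background and are no result about the 10. The median log2 fold of the 10 was 0.23, beside -0.01 for all 335 compared precursors, whose central 90% ran from -0.66 to 0.55. The 2 precursors past the size rule were the only ones of the 10 outside that range. The median was -0.16 over the 5 precursors that averaged 10 CPM or more, a set without miR-5121, miR-677, miR-6516 and the copies of miR-3084, and -0.32 over all 10 per count outside the precursors. With plain totals every log2 fold was 0.13 higher, and the intervals of miR-664 (-0.13 to 0.10) and miR-1843a (-0.08 to 0.04) then held 0. Those of miR-3084-1 (0.10 to 0.89) and miR-3084-2 (0.050 to 0.87) then lay above 0. The interval of miR-6516 held 0 with the authors' RPM denominators (-0.04 to 0.78) and with all listed counts (-0.13 to 0.69).

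**Figure D4:**
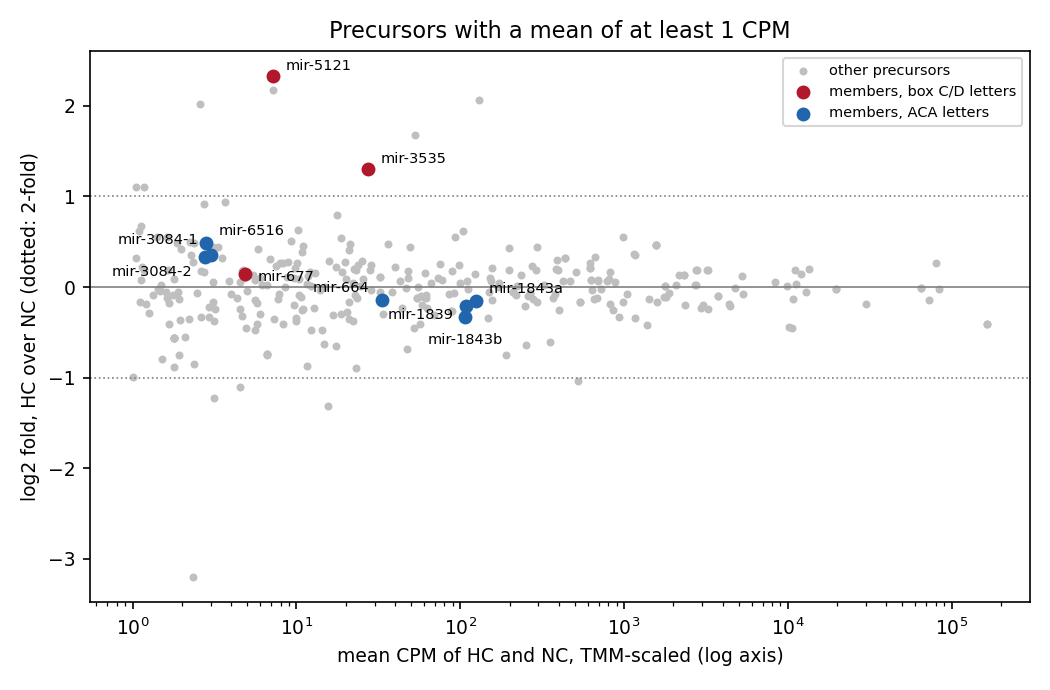
Mean level (CPM, log axis) against log2 fold of HC over NC for the 335 precursors that averaged 1 CPM or more, with the 10 coloured by the letters of the overlapping gene. miR-5121, at 2.33, is the highest point of the plot, and the 7 precursors with ACA letters lie between -0.33 and 0.48.

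In level, the 10 spanned about the same range in both libraries. Per 100 bases of hairpin, miR-1843a came first with 181.9 CPM in HC (176.2 to 187.8) and 202.7 CPM in NC (197.4 to 208.1). miR-6516 came last with 2.98 CPM in HC (2.44 to 3.60) and 2.13 CPM in NC (1.73 to 2.59). miR-1843b, miR-1839, miR-664 and miR-3535 followed miR-1843a in this order in both libraries, although the intervals of miR-1843b and miR-1839 overlapped in HC. The shared order depends on dividing by hairpin length. By CPM without length, HC had miR-1839 (100.1) above miR-1843b (94.5) and miR-3535 (39.0) above miR-664 (31.5), while NC kept the order given. miR-5121 stood sixth in HC at 16.2 CPM per 100 bases (14.7 to 17.9), above miR-677 at 6.55 (5.60 to 7.62). In NC it stood ninth at 3.23 (2.63 to 3.93), below miR-677 at 5.94 (5.14 to 6.84) and not distinguishable from the copies of miR-3084. In HC the intervals of miR-677 and miR-3084-1 overlapped, as did those of the copies of miR-3084.

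The precursors nearest in log2 fold to the 2 past the size rule, among those outside the 10, were described over these 2 libraries only. Directly below miR-5121 stood mmu-mir-2137, at 11.7 CPM in HC and 2.60 CPM in NC, a log2 fold of 2.17 (1.86 to 2.49). miR-3535 stood between mmu-mir-6240, with a log2 fold of 1.68 (1.57 to 1.78), and mmu-mir-412, with 1.10 (0.40 to 1.83). mmu-mir-6240 had 81.1 CPM in HC and 25.4 CPM in NC, and mmu-mir-412 had 1.44 CPM in HC and 0.669 CPM in NC.

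Of the 6 other precursors over such genes, only mmu-mir-3068 reached a mean of 1 CPM. It overlaps a snoRNA gene with ACA letters in an intron of Alkbh1 and had 711 counts in HC and 749 in NC, or 21.8 CPM in HC (20.2 to 23.4) and 17.9 CPM in NC (16.6 to 19.2). Its log2 fold of 0.28 (0.13 to 0.43) was under the size rule, which the other 5 could not meet at their level. None of the 6 overlapped a gene with box C/D letters. In sum they had 771 counts in HC and 817 counts in NC.

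The hairpins of the 10 can also be set beside other precursors in features that the list did not use. Their predicted folds were, at the median, less stable per base: the median minimum free energy, computed with RNAfold, was -0.311 kcal/mol per base for the 10 and -0.408 for 1171 other precursors. The least stable was miR-677 at -0.224 kcal/mol per base, where 1.45% of the 899 precursors within 20 bases of its length were less stable still, and miR-664, at -0.407, lay near the middle with 46.2% of 805. The median GC share was 43.4% for the 10 and 51.0% for the others. TGATGA defined the box C/D kind and lies in the gene bases that those 3 hairpins cover, so its presence there is no finding. It was present in 26 of the 1171 others (2.22%). Of the 26 others with TGATGA, 10 reached a mean of 1 CPM. None of these passed the size rule in either direction, which with shares of 2.39% higher and 1.49% lower over all compared precursors is near the background. Their log2 folds ran from -0.62 to 0.62 with a median of -0.05. Apart from the copies of miR-3084, the 17 mature entries of the 10 precursors shared no seed, and 15 seeds were distinct.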

How the data were processed

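Small RNA libraries were prepared with TruSeq reagents after Trizol and mirVana extraction, per the labels' protocols. Tools named in the submitters' processing notes are TopHat2 2.0.10, HTSeq 0.5.4 and CASAVA 1.8.2, with build mm10. Steps not given in the sources used here include trimming, strand settings, the miRNA annotation and the handling of reads with several alignments. mmu-mir-486a and mmu-mir-486b had the same mean level (164431 CPM) and log2 fold (-0.404). The same held for mmu-mir-451a and mmu-mir-451b (434.8 CPM, 0.324). Whether reads were counted without regard to strand was not tested, so the counts given here may include reads of either strand. The authors deposited whole-number counts per precursor, both arms together, and a signal column headed RPM, a constant multiple of the count per library, used here only as another denominator (27222821 in HC, 32252170 in NC). The 5 summary rows per file stayed out of library sizes. They hold 55.9% (HC) and 44.1% (NC) of listed counts.

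Groups came from the phenotype labels. Library sizes were scaled by TMM (edgeR 4.0.16, R 4.3.3), with no test, since each group had 1 library. Folds have exact conditional binomial (Clopper-Pearson) 95% intervals, levels exact Poisson intervals and shares exact Clopper-Pearson intervals. The code was tested on simulated counts. Gene overlap (at least 1 shared base) and sequences came from GENCODE M21 (GRCm38, the assembly of mm10), which held all 1187 precursors at the same coordinates. Mature sequences came from RefSeq (GRCm38.p6), where all 10 matched. Motifs were matched to the annotated strand, and folding energies came from RNAfold 2.7.2 for the 1181 precursors with a single hairpin sequence. The 10 members, the lists and the size rule were chosen with earlier results of these data known. All 10 members are named, with the nearest precursors in log2 fold and other overlapping precursors that averaged 1 CPM or more. Alternatives covered the denominator, the minimum level, the fold limit, copies and hairpin length.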

Additional observations from a re-analysis of the deposited data

Results flagged for a closer look

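Counts outside all listed precursors, which took no part in the comparison of precursors, made up 55.9% of listed counts in HC and 44.1% in NC, above the share in the control library. Which RNAs they come from was not tested.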

How the results depend on the processing

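miR-5121 kept its direction and stayed past 2-fold with each of the 6 other denominators, at log2 folds of 1.78 to 2.47. miR-3535 kept its direction with all 6. It moved to 1.09 with all listed counts and to 0.75, under 2-fold, per count outside the precursors, a denominator chosen after seeing the data. With that denominator miR-5121 was at 1.78, 1 of the 10 was higher by the size rule, against 1.49% of all compared, 10.1% of all compared were lower, the median of the 10 was -0.32 and that of all compared -0.56, and miR-6516 reversed to -0.067. The log2 folds of miR-677 and of the first and second copy of miR-3084 were then -0.41, -0.19 and -0.22. These shifts follow from the denominator, which lowers every log2 fold by 0.55. With a minimum of 10 CPM, 1 of the 10 was higher (1.35% of all compared higher, 0.901% lower) and the median of the 10 was -0.16. Plain totals raised every log2 fold by 0.134, while the authors' RPM denominators shifted it by -0.112 and all listed counts by -0.208, which put miR-677 at -0.068. The share of all compared precursors that was lower was 0.896% with plain totals, 3.28% with all listed counts and 2.88% with no minimum level. With a 1.5-fold limit, 4.18% were higher and 6.27% lower, and the count of members did not change. Ordering by CPM without length kept 14 of 20 positions. No paired analysis was possible because each group had 1 library, and for the same reason no library could be left out. At 100 to 194 counts per library, the intervals of the copies of miR-3084 and of miR-677 held 0 with TMM scaling. With plain totals those of the first copy (0.10 to 0.89) and the second copy (0.050 to 0.87) lay above 0, and per count outside the precursors that of miR-677 (-0.72 to -0.10) lay below 0.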
